A study of Mus musculus with 5 samples.

Results

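The genes of the proteasome were examined in ribosome profiling (RIBO-seq) data of mouse embryonic stem cells (mESCs). They were chosen by symbol, as all protein-coding genes whose name is Psm, a letter from a to g and a digit, and each gene was represented by its protein_coding transcript with the highest mean read count. This gave 50 genes out of 21884 protein-coding genes in the deposited table, which lists 135276 transcripts. One of them, Psmc3ip, carries a matching name but encodes a recombination factor of meiosis, and it belongs to no class below but is included in the counts, medians and sums over all members. RIBO-seq sequences the short RNA fragments that a ribosome shields from RNase, so that the number of fragments on a transcript reflects how many ribosomes were on it.

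All libraries were made from mESCs labelled as untreated, grown with leukemia inhibitory factor and serum without a feeder layer being named, and pre-treated with cycloheximide, which stalls elongating ribosomes, before lysis. RNA outside ribosomes was removed from all lysates with RNase I (1.3 U, 45 min) in the presence of sBlock, an anisomycin-based reagent that keeps the nascent peptide on the ribosome. In the 3 standard RIBO-seq libraries, 80S ribosomes were then collected through a 30% sucrose cushion. In the 2 AHARIBO libraries, ribosomes were captured on magnetic beads through their nascent peptides, which carry the methionine analog L-azidohomoalanine (AHA) and were linked to biotin with 50 µM of a dibenzocyclooctyne reagent. In the AHARIBO workflow, cells are depleted of methionine before AHA is added. The labels do not say whether the cells of the standard libraries were treated in this way. The study describes these libraries as made from the input and gives a single lysate preparation for both methods, without naming AHA there. For a proteomics comparison, it defines the input as a lysate that contains AHA. Where the cells were treated differently, that treatment and the capture cannot be told apart, and neither can the capture and the rest of the handling of each method. The libraries are labelled as biological replicates, and the p-values below measure the spread between them. As a chi-square per degree of freedom, the variance relative to counting error was 1.11, 1.29 and 1.58 for pairs of standard libraries. For the AHARIBO pair it was 1.71. The spread was thus not far above counting error, and how independent the cultures were was not tested.

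The 26S proteasome degrades proteins that have been tagged with ubiquitin. Its 20S core is a barrel of outer rings of alpha subunits, which gate the entry, and inner rings of beta subunits, of which Psmb5, Psmb6 and Psmb7 carry the proteolytic sites. Each alpha and beta subunit is present in the barrel as a pair of copies, whereas the 19S cap, made of a base with an ATPase ring and a lid that removes ubiquitin, holds a single copy of most of its subunits. Immune cells and cells exposed to interferon replace the catalytic beta subunits by Psmb8, Psmb9 and Psmb10 to form the immunoproteasome, and the activators Psme1 to Psme4 can take the place of the cap.

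The catalytic and the immunoproteasome subunits differ in sequence while sharing their active site. The coding stretches below are the ones around the codon of the threonine that starts the mature enzyme and attacks the substrate. They are shown because the comparison of constitutive and immune subunits rests on reads that can tell the genes apart. The sequences are those of the Gencode M21 transcripts on GRCm38, and the capitals mark the threonine codon.
Psmb5: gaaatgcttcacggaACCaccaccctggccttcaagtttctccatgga
Psmb8: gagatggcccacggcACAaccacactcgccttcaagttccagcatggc
Psmb6: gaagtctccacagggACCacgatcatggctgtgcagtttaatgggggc
Psmb9: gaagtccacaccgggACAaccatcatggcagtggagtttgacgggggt
Psmb7: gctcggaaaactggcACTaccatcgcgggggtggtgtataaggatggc
Psmb10: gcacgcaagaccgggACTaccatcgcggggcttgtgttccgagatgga

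The Psmb5 stretch lies on the minus strand of chromosome 14 between 54616810 and 54617829 and runs from exon 1 into exon 2 of the gene. The Psmb6 stretch lies on the plus strand of chromosome 11 between 70525481 and 70525917, also across exons 1 and 2, and that of Psmb7 on the minus strand of chromosome 2 between 38642270 and 38643399, across exons 2 and 3. Psmb8 and Psmb9 both lie on chromosome 17, with their stretches at 34199287 to 34199334 on the plus strand, within exon 2, and at 34185765 to 34187264 on the minus strand, across exons 1 and 2. The Psmb10 stretch lies on the minus strand of chromosome 8 between 105937586 and 105937720, across exons 2 and 3. Of the 48 bases shown, 36 were the same in Psmb5 and Psmb8, 38 in Psmb6 and Psmb9, and 35 in Psmb7 and Psmb10. The longest run shared by the whole coding sequences was 18 nt for Psmb5 and Psmb8, 11 nt for Psmb6 and Psmb9, and 15 nt for Psmb7 and Psmb10, which is shorter than the selected fragments of 25 to 35 nt.

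A different situation was found for Psme2 and Psme2b, which encode the same subunit of the 11S activator. Psme2 is a gene of 11 exons on chromosome 14, and Psme2b has a single exon on chromosome 11. Their coding sequences of 717 bases differed at 5 positions, none of which changes an amino acid, and shared a run of 311 nt. The stretch of 60 coding bases with the most differences, 3 in number, is shown because reads from the coding sequences of these genes differ only at such bases, which the capitals mark. The transcripts also differ outside the coding sequence.
Psme2: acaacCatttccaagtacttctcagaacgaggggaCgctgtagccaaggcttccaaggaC
Psme2b: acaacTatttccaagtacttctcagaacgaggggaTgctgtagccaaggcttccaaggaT

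The Psme2 stretch is at 55588049 to 55588246 on the minus strand of chromosome 14, across exons 8 and 9, and the Psme2b stretch is at 48945576 to 48945635 on the minus strand of chromosome 11, in its only exon. The values of Psme2 and Psme2b are therefore given as uncertain. Processed pseudogenes raise the same question for other members. At least 10% of the 30-nt windows of 13 of the 50 transcripts also occurred in transcripts of other genes, among them Psmb5 with 74.7%, Psma5 with 64.5%, Psmb3 with 57.0% and Psmd2 with 46.6%. Within the coding sequence alone, 9 members shared 50% or more of the windows, and Psma3 shared the most with 91.7%. Psma2, which is below the limit of 10% by transcript, shared 32.8% of its coding windows. How the authors counted reads that match several transcripts is not given in the sources used here. The transcripts of Psmd8 had 74.4, 74.4, 74.2 and 72.0 CPM, so that reads shared by them were neither left out nor all given to 1 transcript. A Psmd11 transcript of 597 nt had 19.1 CPM beside 63.3 CPM for the highest. Psme2 had 90, 93, 74, 133 and 109 reads in the 5 libraries, and Psme2b 75, 81, 63, 111 and 88. Whether these were largely the same reads, counted for both genes, was not tested.

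Counts summed over all deposited transcripts lay between 6403651 and 11150527 in the 5 libraries after removal of duplicates. These sums can hold a read more than once and may exceed the number of reads sequenced. Levels are given in CPM (counts scaled to this sum, with TMM factors), and a count of 3 reads in a library corresponded to 0.262 to 0.476 CPM. All 10 mESC markers examined, among them Pou5f1 and Nanog, had mean levels between 44.7 and 247 CPM. The 26 markers of neurons, fibroblasts, endoderm, trophectoderm and immune cells lay at 34.9 CPM for Tubb3 and below 4 CPM for the others, and Ptprc, the defining marker of blood cells, was at 0.0224 CPM.

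To compare genes of different length, levels were divided by length. The subunits of the 20S core and the 19S cap had high footprint levels. Per kb of transcript, the median of the 14 constitutive 20S subunits was 68.8 CPM and that of the 17 subunits of the 19S cap 38.7 CPM. These medians lie above 97.4% and 94.6% of the 12360 protein-coding genes that passed the filter of 1 CPM in at least one library. Per kb of coding sequence, the corresponding medians were 98.4 and 57.1 CPM.

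**Figure D1:**
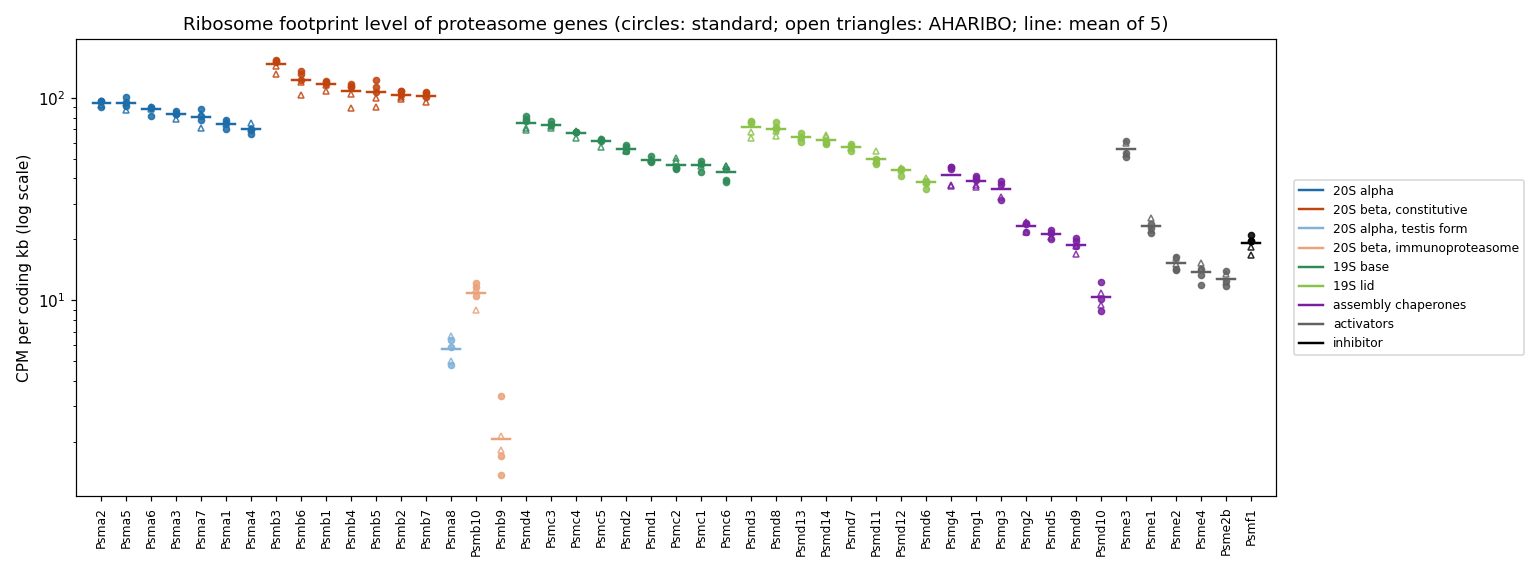
Level of each proteasome gene in CPM per coding kb (log axis) in the 3 standard (circles) and 2 AHARIBO (open triangles) libraries, with a line at the mean of 5 libraries, ordered by class. The constitutive 20S subunits sit between 70.2 and 147, the 19S subunits between 38.2 and 75.3, and Psma8, Psmb9 and Psmb10 far below; Psmb8 and Psmb11, which are at 0 in most libraries, and Psmc3ip are not drawn.

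Within each class, the choice of length mattered. The 7 alpha subunits spanned 2.92-fold per kb of transcript, from 22.4 CPM for Psma3 to 65.4 CPM for Psma7. Per coding kb they spanned only 1.34-fold, from 70.2 CPM for Psma4 to 94.5 CPM for Psma2. Psma2 and Psma3 were represented by transcripts of 2911 and 2846 nt with coding sequences of 702 and 765 nt, and both rank lowest by the former and within the upper 4 by the latter. Psma3 was at 63.5, 65.9 and 63.6 CPM in the standard libraries and at 60.5 and 64.9 CPM in the AHARIBO libraries. Psma7 was at 58.1, 60.6 and 65.4 CPM in standard and at 53.0 and 61.9 CPM in AHARIBO. In both genes the values of the methods overlapped.

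The beta subunits lay higher than the alpha subunits. The 7 constitutive beta subunits spanned 102 to 147 CPM per coding kb, so that the lowest of them, Psmb7, was above the highest alpha subunit, Psma2, in the mean over libraries. The ratio of the beta median to the alpha median was 1.37 ± 0.07 (SD, n = 3) in standard and 1.23 ± 0.01 (SD, n = 2) in AHARIBO. Psmb3, a structural beta subunit, had the highest level per kb by either length, with 93.0, 95.0 and 93.6 CPM in the standard and 80.8 and 88.3 CPM in the AHARIBO libraries. Psmb4, another structural subunit and the lowest per kb of transcript, was at 92.7, 89.2 and 91.1 CPM in standard and at 71.0 and 82.5 CPM in AHARIBO. Both AHARIBO libraries were below all standard libraries for both genes.

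The 3 catalytic subunits had similar levels. Psmb5, which carries the chymotrypsin-like site and is the target of the drug bortezomib, was at 89.7, 84.3 and 96.8 CPM in the standard libraries and at 71.2 and 79.4 CPM in the AHARIBO libraries. Psmb6, with the caspase-like site, was at 87.3, 93.7 and 97.2 CPM in standard and at 73.8 and 85.7 CPM in AHARIBO. Psmb7, with the trypsin-like site, was at 88.4, 83.8 and 87.4 CPM in standard and at 79.4 and 86.2 CPM in AHARIBO. For Psmb5 and Psmb6 the methods did not overlap, with AHARIBO below, and for Psmb7 they did. Per coding kb, their means over all libraries were 106, 123 and 102 CPM. The order of Psmb5 and Psmb7 was not the same in both methods, with 114 and 104 CPM per coding kb in standard and 95.1 and 99.6 CPM in AHARIBO.

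The tissue-specific forms of the core were at low levels or near 0. Psmb8 had 0 reads in 4 of 5 libraries and 1 read in AHARIBO replicate 2, which is below the limit of 3 reads in every library. Psmb11, the thymus form, had 1 read in standard replicate 1 and 0 in the others. For neither gene can presence or a difference between methods be read from these counts. Psmb9 had 8, 20 and 7 reads in the standard and 16 and 12 reads in the AHARIBO libraries, or 0.896 to 2.21 CPM. Psmb10 was higher, at 9.97, 9.49 and 8.57 CPM in standard and at 9.27 and 7.29 CPM in AHARIBO.

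Set against the constitutive subunit of the same site, the immune forms were in the minority. Per coding kb, Psmb10 had 11.0% ± 0.88 (SD, n = 3) of the level of Psmb7 in standard and 10.2% ± 2.32 (SD, n = 2) in AHARIBO. Psmb9 had 1.64% ± 0.80 (SD, n = 3) of the level of Psmb6 in standard and 1.79% ± 0.38 (SD, n = 2) in AHARIBO. These shares did not differ between the methods beyond the spread of the libraries. In libraries of whole cultures, reads from a few cells and a low level in all cells cannot be told apart. Psma8, the alpha subunit known from spermatocytes, was at 3.58, 4.42 and 4.76 CPM in standard and at 3.76 and 4.99 CPM in AHARIBO. Its level per coding kb was 7.12% ± 0.67 (SD, n = 5) of that of Psma7, the subunit whose place it takes. These shares were lower per kb of transcript, over the 5 libraries, at 9.30% for Psmb10, 0.924% for Psmb9 and 3.88% for Psma8.

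The median of the 19S cap was below that of the core, but the ranges of their subunits overlapped. Per kb of transcript, the median of 51.65 CPM for the base of the cap was above the 49.1 CPM of the alpha subunits. The 9 base subunits, which include the 6 ATPases Psmc1 to Psmc6 that unfold the substrate, spanned 42.8 to 75.3 CPM per coding kb. Psmd4, a ubiquitin receptor, was the highest of the base by either length, with 91.3, 88.4 and 86.5 CPM in standard and 78.6 and 80.1 CPM in AHARIBO. The ATPase Psmc6 was the lowest, with 51.9, 44.6 and 45.7 CPM in standard and 54.1 and 53.7 CPM in AHARIBO. The methods did not overlap in either gene, but Psmd4 was lower in AHARIBO and Psmc6 higher. Psmd1 and Psmd2, the large scaffolds of the base with 953 and 908 residues, had the highest reads per transcript of all members, 138 to 147 and 149 to 159 CPM, and per coding kb they lay within the range of the other base subunits at 49.5 and 56.1 CPM.

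The 8 lid subunits spanned 38.2 to 71.9 CPM per coding kb, and their median was 59.5 CPM beside 56.2 CPM for the base. Per kb of transcript the order was the opposite, with medians of 35.5 CPM for the lid and 51.65 CPM for the base. Psmd3 had the highest level of the lid, with 120, 121 and 123 CPM in standard and 100 and 108 CPM in AHARIBO, and the methods did not overlap. Psmd11 was the lowest per kb of transcript, with 63.5, 59.9 and 61.4 CPM in standard and 69.5 and 62.0 CPM in AHARIBO, and the methods overlapped. Per coding kb it was at 50.0 CPM, above Psmd6 and Psmd12. Psmd14, the deubiquitinase of the lid, was at 54.9 to 57.1 CPM in standard and at 59.8 and 60.9 CPM in AHARIBO.

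The ratio of the 20S median to the 19S median was computed in each library. Per kb of transcript it was 1.80 ± 0.03 (SD, n = 3) in standard and 1.63 ± 0.14 (SD, n = 2) in AHARIBO. The AHARIBO libraries, at 1.54 and 1.73, were both below the standard libraries, which lay between 1.78 and 1.83. Per coding kb it was 1.74 ± 0.06 (SD, n = 3) in standard and 1.66 ± 0.09 (SD, n = 2) in AHARIBO, and the methods overlapped. With duplicate reads kept, they did not overlap on either scale. Per kb of transcript, AHARIBO was then at 1.84 and 1.954 and standard at 2.135 to 2.204. Per coding kb, AHARIBO was at 1.979 and 1.968 and standard at 1.982 to 2.107, so that the gap was small. The mean over the 5 libraries rose from 1.71 to 2.01 per coding kb and from 1.73 to 2.06 per kb of transcript. Removal of duplicates left 55.0 to 59.2% of the reads on beta subunits and 72.6 to 74.2% of the reads on 19S base subunits in the standard libraries. The ratio therefore depended on how duplicates were treated, and the sources used here do not say how duplicates were recognised.

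**Figure D2:**
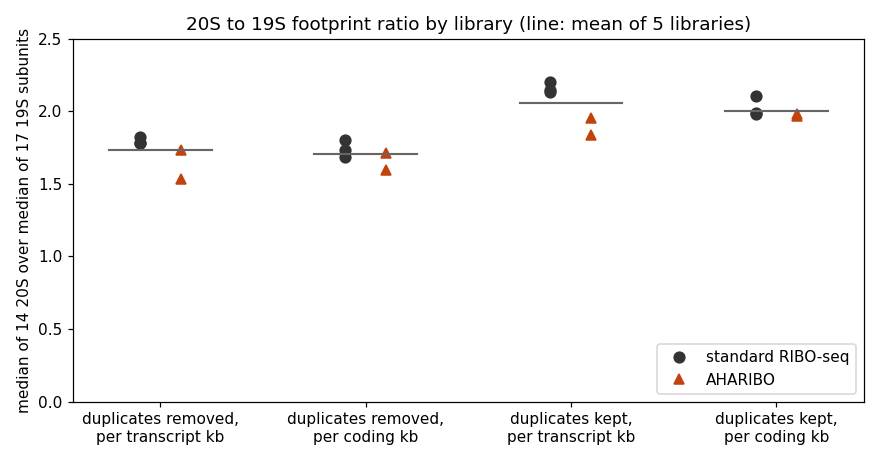
Median level of the 14 constitutive 20S subunits divided by that of the 17 subunits of the 19S cap in each library, per transcript or coding kb, with duplicates removed or kept (circles, standard; triangles, AHARIBO; line, mean of 5 libraries). The means are 1.73 and 1.71 without duplicates and 2.06 and 2.01 with them.

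Assembly chaperones, which guide the subunits together and leave the finished particle, were at lower levels than most subunits. The 4 chaperones of the 20S core, Psmg1 to Psmg4, had 23.2 to 41.8 CPM per coding kb, and the 3 chaperones of the 19S base, Psmd5, Psmd9 and Psmd10, had 10.4 to 21.3 CPM. Psmg1, the highest per kb of transcript, was at 35.9, 34.1 and 34.9 CPM in standard and at 32.0 and 31.6 CPM in AHARIBO. Psmd9, the lowest, was at 13.6, 13.0 and 12.4 CPM in standard and at 11.3 and 12.4 CPM in AHARIBO. AHARIBO was below standard in all libraries for Psmg1 and overlapped with it for Psmd9.

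The activators spanned 4.35-fold per coding kb but only 1.45-fold per kb of transcript, from 10.95 CPM for Psme2b to 15.9 CPM for Psme3. Psme3, which forms the nuclear activator, had 55.6 CPM per coding kb, beside a median of 56.2 for the 19S base, while per kb of transcript its 15.9 CPM stood beside a median of 51.65. It was at 46.6, 38.7 and 40.8 CPM in standard and 40.1 and 45.7 CPM in AHARIBO. The interferon-induced Psme1 had 23.2 CPM per coding kb. Psme2 and Psme2b had 15.2 and 12.8 CPM, with the uncertainty given above. Psme2b was at 8.40, 8.94 and 9.99 CPM in standard and at 9.71 and 8.79 CPM in AHARIBO. Psme4, a single large protein of 1843 residues, received 65.5 to 84.6 CPM, but only 13.8 CPM per coding kb. Psmf1, an inhibitor of the core, was at 15.9 to 17.1 CPM in standard and at 13.7 and 15.0 CPM in AHARIBO, or 19.1 CPM per coding kb. Psmc3ip, which is not a proteasome subunit, was at 7.99 to 9.41 CPM.

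Next, AHARIBO was compared with standard RIBO-seq, to see whether capture by the nascent peptide recovers the ribosomes on proteasome transcripts to the same extent. Of the 50 genes, 48 passed the filter and were tested, and Psmb8 and Psmb11 did not. The number of members with an adjusted p under 0.05 was 0 by edgeR's quasi-likelihood test, with Benjamini-Hochberg adjustment over 66972 transcripts, and 0 by DESeq2. Of all transcripts tested, 4.51% were called by edgeR, and of the highest transcripts of the 12360 protein-coding genes, 5.12%. At an unadjusted p under 0.05, 7 of the 48 genes (14.6%) passed with edgeR and 4 with DESeq2, against 18.7% of all transcripts with edgeR. With DESeq2, the 4 genes were 8.33% of the members, against 6.5% of all transcripts at the same unadjusted threshold and 0.333% at the adjusted one. The members' share was thus below the background with edgeR at either threshold and above it with DESeq2 at the unadjusted threshold. In simulated data for this comparison, 200 of 66972 transcripts were changed, all chosen above a minimum level that Psmb9 and Psma8 do not reach. Of these changes, edgeR recovered 70% of the 1.5-fold and 98% of the 2-fold ones, and DESeq2 recovered 30% and 84%. Smaller changes, such as those of the members, were not simulated, so that these shares give no recovery for them.

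The changes were small. The log2 fold change (AHARIBO over standard) ranged from -0.30 for Psmg4 to 0.18 for Psmc6, with a median of -0.02 over the members, beside 0.00 over all transcripts tested and over the protein-coding genes. The standard errors lay between 0.08 and 0.40, and the widest belonged to Psmb9. Summed over all members, the level was 2733 ± 16.9 CPM (SD, n = 3) in standard and 2644 ± 71.7 CPM (SD, n = 2) in AHARIBO, where both libraries, at 2593 and 2695 CPM, were below the standard range of 2721 to 2752 CPM. The members took 0.973% ± 0.007 (SD, n = 3) and 0.965% ± 0.018 (SD, n = 2) of the reads on the highest transcripts of protein-coding genes, and the methods overlapped in this share.

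**Figure D3:**
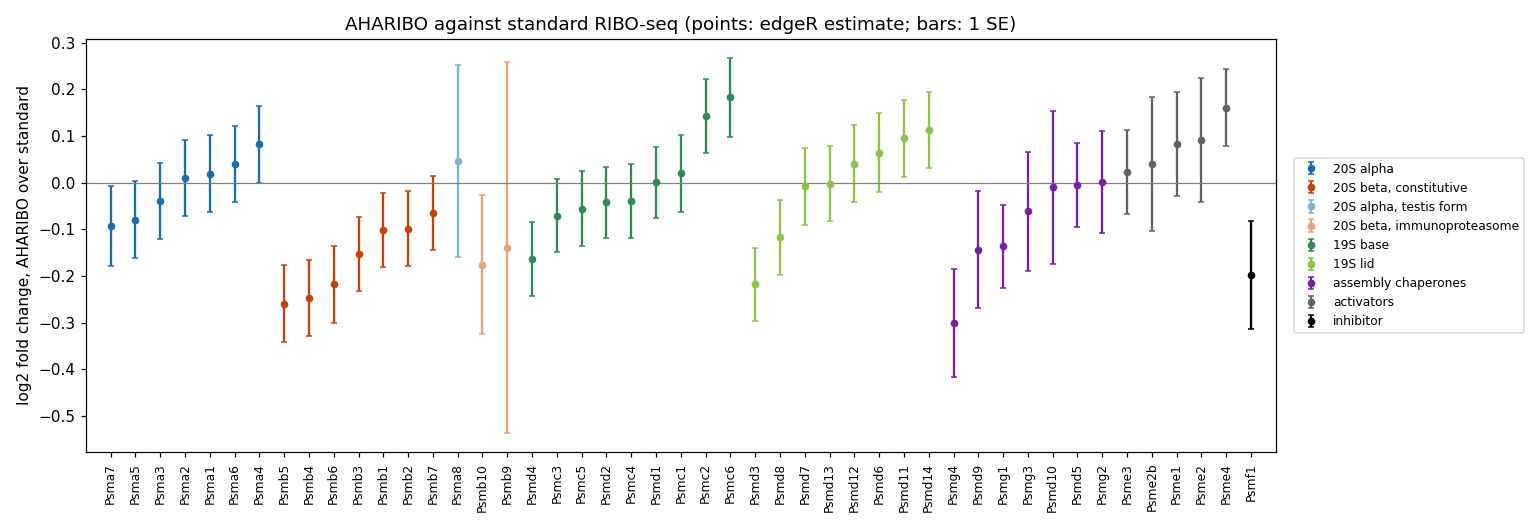
Log2 fold change of AHARIBO over standard RIBO-seq for each tested proteasome gene except Psmc3ip, by class, with bars of 1 SE from edgeR. The 7 constitutive beta subunits all lie below 0 and the alpha subunits on both sides of it; no gene has an adjusted p under 0.05.

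The 5 largest changes were negative, and none passed the test. Psmg4, a chaperone of the 20S core, was at 16.8, 16.9 and 16.3 CPM in standard and at 13.7 and 13.5 CPM in AHARIBO, with a log2 fold change of -0.30 ± 0.12 (SE, adjusted p = 0.130 by edgeR). Psmb5 followed with -0.26 ± 0.08 (SE, adjusted p = 0.0558), Psmb4 with -0.25 ± 0.08 (SE, adjusted p = 0.0671), and Psmd3 and Psmb6 with -0.22 ± 0.08 each (SE, adjusted p = 0.0979 and 0.121 by edgeR). DESeq2 gave adjusted p-values of 0.518 or more for all members. Among the genes with higher values in AHARIBO, Psmc6 had 0.18 ± 0.08 (SE, adjusted p = 0.225), Psme4 0.16 ± 0.08 (SE, adjusted p = 0.289) and Psmc2 0.14 ± 0.08 (SE, adjusted p = 0.338 by edgeR). The order of the changes varied with the processing. With duplicates kept, the 5 largest were Psmg4 at -0.43, Psmc6 at 0.32, Psma4 at 0.30, Psmd3 at -0.26 and Psmd14 at 0.26, so that 3 of them were positive, and without duplicates Psma4 was at 0.08 and Psmd14 at 0.11. With scaling by library size only, Psmc6 at 0.22 and Psme4 at 0.19 were among the 5 largest.

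By class, the constitutive beta subunits stood on one side, as did most assembly chaperones. All 7 constitutive beta subunits had a log2 fold change below 0, from -0.26 to -0.06 with a median of -0.15, and for 6 of them both AHARIBO libraries were below all standard libraries. Of the 7 assembly chaperones, 6 were below 0 with a median of -0.06, and the tested immunoproteasome subunits Psmb10 and Psmb9 were at -0.18 and -0.14. Of the 7 alpha subunits, 3 were below 0 and the median was 0.01. The 17 subunits of the 19S cap were divided into 9 below and 8 above 0 with a median of 0.00. All 5 activators, which include the near-identical Psme2 and Psme2b, were above 0 with a median of 0.08. These divisions were not stable: with duplicates kept, 3 of the 17 cap subunits and 2 of the 5 activators were below 0, and without AHARIBO replicate 1, 5 and 2 were. Scaling by library size only left 7 of the 17 below 0. Over all tested members, 13 did not overlap with AHARIBO below (27.1%) and 4 did not overlap with AHARIBO above (8.33%). Of the highest transcripts of protein-coding genes, 17.1% did not overlap with AHARIBO below and 17.2% with AHARIBO above. No test was made of a class as a whole. The 10 markers of mESCs also had a median log2 fold change below 0, at -0.18, and their summed level was 1504 to 1598 CPM in standard and 1341 to 1467 CPM in AHARIBO. Of the 10, 3 were lower in AHARIBO by edgeR, Sox2 with -0.32 (adjusted p = 0.0130), Klf4 with -0.34 (adjusted p = 0.00836) and Utf1 with -0.34 (adjusted p = 0.00484 by edgeR), and 1 of them, Utf1, also by DESeq2. In either direction, edgeR called 5.12% of the highest transcripts of protein-coding genes, and DESeq2 called 0.333% of all transcripts. A relation between these markers and the beta subunits was not tested.

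**Figure D4:**
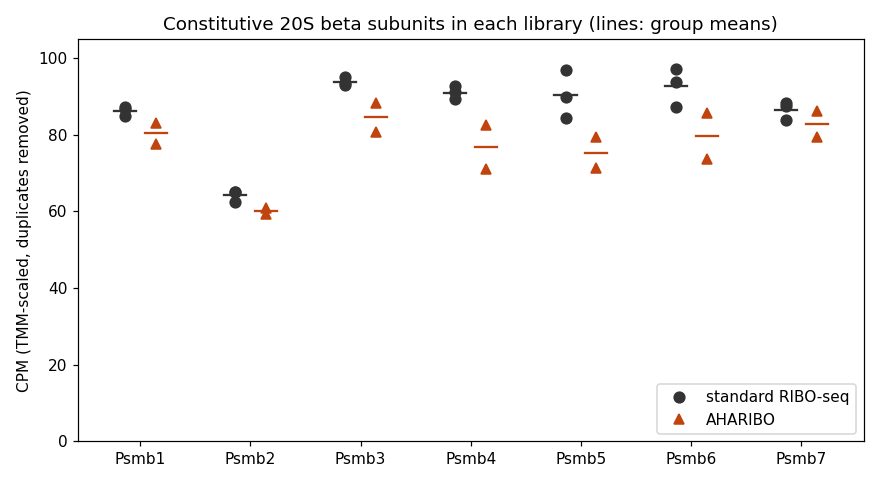
CPM of the 7 constitutive beta subunits in each library (circles, standard; triangles, AHARIBO; lines, group means). For all but Psmb7 both AHARIBO libraries are below the 3 standard libraries, and AHARIBO replicate 1 is the lower of the 2 in each gene.

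The size of the changes of the beta subunits, and the calls, varied with the library left out and with the treatment of duplicates. AHARIBO replicate 1, the library with the highest summed counts, was the lowest of all 5 for each of the 7 genes. Without it the median of the beta subunits was -0.09, with all 7 still below 0, and without AHARIBO replicate 2 it was -0.21, and Psmb4 (adjusted p = 0.0160), Psmb5 (adjusted p = 0.0269) and Psmb6 (adjusted p = 0.0322 by edgeR) passed the threshold. With 1 AHARIBO library, the spread comes from the standard libraries, and the AHARIBO library is assumed to vary like them. These 3 genes were 6.25% of the 48 members, against 5.77% of all transcripts called in the same fit, a share near the background. Without standard replicate 2, Psmb5 passed with an adjusted p of 0.0369 by edgeR, where 4.43% of all transcripts were called. Removal of duplicates left 49.0% of the reads on beta subunits in AHARIBO replicate 1, 56.2% in AHARIBO replicate 2 and 55.0 to 59.2% in the standard libraries, beside 56.4%, 59.0% and 56.6 to 57.8% of the reads on the highest transcripts of all protein-coding genes. Over all transcripts, 52.3% were left in AHARIBO replicate 1 and 55.1 to 56.7% in the others. With duplicates kept, 5 of the 7 beta subunits were below 0 with a median of -0.06, while 1 of the 7 alpha subunits was. The part of duplicate removal in these differences was not tested beyond these values.

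The 50 genes had 103 protein_coding transcripts, of which 98 were tested and 1 was called (1.02%, against the 4.51% of all transcripts). This was a shorter transcript of Psmb5 of 622 nt at 65.6 CPM, with a log2 fold change of -0.30 ± 0.08 (SE, adjusted p = 0.0302 by edgeR).

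Since AHARIBO depends on an analog of methionine in the nascent peptide, the number of methionines and the length of the proteins were set beside the changes. Across the 12356 protein-coding genes with an annotated coding sequence length, Spearman's rho between log2 fold change and protein length was 0.28, and for the number of methionines it was 0.26. Coding sequences annotated as incomplete were not left out. Across the 48 members, which share the libraries and are not independent, it was 0.27 for length and 0.08 for methionines. Most members are short, and 27 of the tested genes encode proteins of over 200 and up to 300 residues, including all beta and alpha subunits. Their median log2 fold change was -0.06, beside -0.07 for all 1634 protein-coding genes in this range of length. Among the tested beta subunits, Psmb3 with 15 methionines and Psmb4 with 13 had the most, and their changes were -0.15 and -0.25. Among the alpha subunits, Psma7 and the testis form Psma8 had the fewest with 3 each, and their changes were -0.09 and 0.05.

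**Figure D5:**
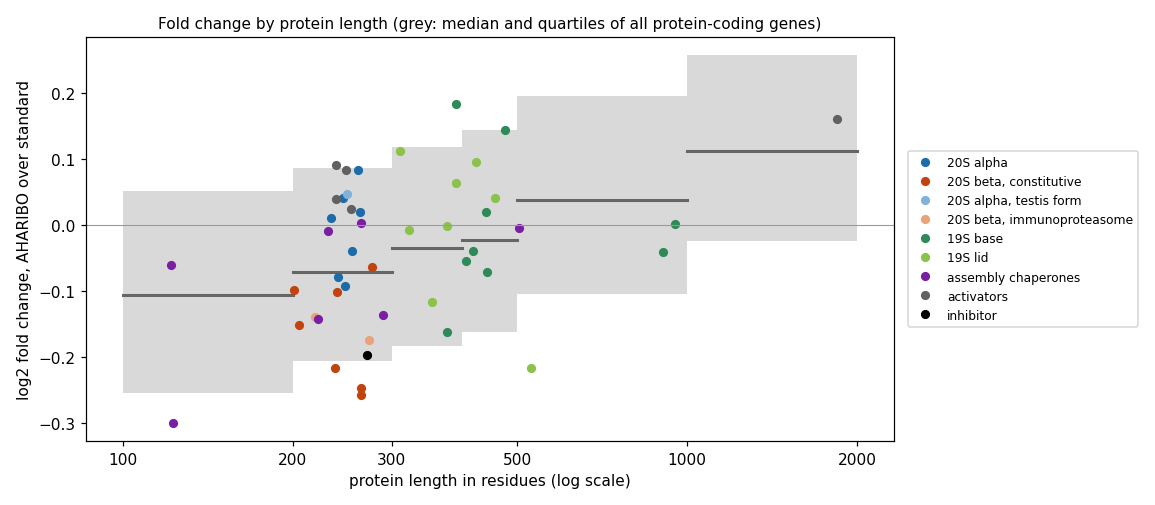
Log2 fold change of AHARIBO over standard against protein length in residues (log axis) for the tested proteasome genes except Psmc3ip, over the median (grey line) and quartiles (grey band) of all protein-coding genes in 6 ranges of length, of which the outermost are cut at the edges drawn. The median of all genes goes from -0.11 in the shortest range to 0.11 in the longest.

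Genes that work with the proteasome but carry other names were examined as a list of 28, all of which were tested, and 3 of them are described here. Adrm1, a ubiquitin receptor of the cap, was at 81.7, 77.5 and 86.0 CPM in standard and at 68.3 and 70.1 CPM in AHARIBO, a log2 fold change of -0.24 ± 0.08 (SE, adjusted p = 0.0795 by edgeR). Pomp, the maturation factor of the 20S core, was at 31.4, 27.3 and 24.4 CPM in standard and at 31.0 and 27.1 CPM in AHARIBO. Nfe2l1, the transcription factor that raises proteasome genes when proteasome activity is short, was at 65.1, 68.1 and 68.8 CPM in standard and at 70.5 and 64.7 CPM in AHARIBO. The methods overlapped for Pomp and Nfe2l1, with log2 fold changes of 0.06 and 0.01.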

How the data were processed

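The authors trimmed reads with Trimmomatic 0.36, removed rRNA and tRNA, aligned the rest to Gencode M17 transcripts (GRCm38.p6) with STAR and discarded antisense reads. They deposited read counts per transcript, both after duplicate removal and before it, beside transcript lengths, and 0 columns of per-sample values were left unused. The version without duplicates was analysed. Samples were grouped by their labels.

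Names and coding sequences came from Gencode M21, which held 99.8% of the deposited transcripts, and lengths from the file. TMM-scaled CPM came from edgeR 4.0.16, run in R 4.3.3. The quasi-likelihood test of edgeR, with no block for replicates and Benjamini-Hochberg adjustment, was applied to transcripts that reached 1 CPM in any library, and DESeq2 1.42.0 was the alternative. SEs are approximate, as they were derived from the F statistic. Both tests were tested on simulated data. Levels, ratios and shares have no test.

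Genes named with values for each library were the catalytic and immune beta subunits, the highest and lowest per kb of transcript in each class, the 5 largest changes, and Adrm1, Pomp and Nfe2l1 from a list of 28 genes that work with the proteasome. The other results of that list, its calls included, are not reported here. Others, such as Psma8, Psme4 and Psmd14, were added for their roles or after their values were seen. The members and lists were chosen with earlier results of these data known. Limits on counts of 0 cover counting error only. Alternatives covered the test, normalization, filter, threshold, duplicates, transcript, length, shared sequence and each library. Those that join coding length with duplicates kept or with shared sequence left out were added after seeing the data.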

Additional observations from a re-analysis of the deposited data

How the results depend on the processing

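The count of 0 members with an adjusted p under 0.05 was obtained under DESeq2, the other normalizations, the stricter filter, 1 transcript per gene, the replicate block, duplicates kept, the stricter threshold and without members that share sequence. It became 1 without the filter and with transcripts chosen by CPM per kb, and 0 to 3 without 1 library at a time. The median log2 fold change of the members, -0.0249, was 0.00913 with library sizes only, 0.0056 with 1 transcript per gene and 0.0199 with duplicates kept, and between -0.0452 and 0.00115 without 1 library. Whether the replicate numbers pair the libraries is not given in the labels. Deviations of same-numbered libraries from the means of their methods correlated at 0.0423 and -0.0762. With 2 AHARIBO libraries these deviations mirror each other, so that the values cannot exclude a pairing. With the replicate block, the count of called members was 0, their median was -0.0305, and of all transcripts 971 were called higher and 821 lower in place of 1520 and 1501.

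The difference in summed CPM, AHARIBO minus standard, -89.5, was -25.3 with library sizes only and 14.3 with duplicates kept, and between -136 and -38.5 without 1 library. The ratio of 20S to 19S, 1.73, was 1.51 with transcripts chosen by CPM per kb, 2.06 with duplicates kept, 2.01 per coding kb with duplicates kept and 1.59 per coding kb without shared sequence. Without 1 library it was between 1.71 and 1.78.

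Log2 fold changes near 0 turned sign. With duplicates kept, Psma3 was at 0.14, Psmb7 at 0.0592, Psme2b at -0.0905 and Nfe2l1 at -0.0373. Nfe2l1 was at -0.000799 with DESeq2 and -0.000172 with DESeq2 size factors, and Pomp at -0.0147 under the replicate block. Without 1 library, Psma3 lay between -0.0882 and 0.0116, Psma7 between -0.203 and 0.0184, Psmb9 between -0.42 and 0.40, Psme2b between -0.0383 and 0.109, Psme3 between -0.0692 and 0.119, Nfe2l1 between -0.0559 and 0.0706 and Pomp between -0.047 and 0.161. The counts of 7 to 20 reads on Psmb9 limit its comparison, and the cause of these changes was not tested.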
